A study of Mus musculus with 8 samples.

Results

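Candesartan was compared with no drug in the epididymal fat of mice on a high-fat diet, over all 11232 genes that the arrays measured brightly enough to test. The comparison used 4 of the 8 arrays of the series, the 2 of mice given candesartan (HFD+Can) and the 2 of untreated mice on the same diet (HFD), taken by their sample titles. All mice were male C57BL/6J, an inbred strain that becomes obese on fat-rich food, and were 6 weeks old at the start. HFD+Can, HFD+Tel and HFD mice ate a diet in which fat supplied 30% of calories for 24 weeks. HFD+Can mice then drank candesartan for 5 weeks at about 3 mg/kg/day, HFD+Tel mice drank telmisartan at the same dose and for as long, and HFD mice had no drug. Fat supplied 10% of the calories of the chow mice, which had no drug either. Every group had 2 mice with 1 array each. The HFD+Tel and chow arrays entered the fit for its estimate of spread, and their values stand beside those of the compared groups where they help to read them.

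Candesartan is a blood pressure drug that blocks the type 1 angiotensin II receptor. Angiotensin II is cut from angiotensinogen by renin and then by angiotensin-converting enzyme, and it narrows vessels and drives aldosterone release through that receptor. Fat cells make angiotensinogen themselves, and fat of obese mice gathers macrophages that ring dying fat cells. The comparison therefore asks what blocking the receptor for 5 weeks does to the RNA of a fat pad that the diet has already altered.

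The tissue label was checked on the arrays. Adipoq, which encodes the fat cell hormone adiponectin, had signals of 16926 and 16606 in HFD+Can fat, against 15646 and 16814 in HFD fat, near the top of the range. Of 15 markers of epididymis and testis, the neighbours of this fat pad, 0 were bright enough to test. The 2%-trimmed mean signal, to which the arrays were scaled, was 237 and 228 for the HFD+Can arrays and 248 and 211 for the HFD arrays. The ratio of 3' to 5' actin probe sets, a gauge of RNA integrity, lay between 1.18 and 1.22 on all 8 arrays. The 2 mice of a group differed from each other with an SD, across genes on the log2 scale, of 0.314 in HFD+Can, 0.484 in HFD+Tel, 0.273 in HFD and 0.445 in chow.

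No gene passed the test between HFD+Can and HFD. With limma's moderated test, 0 of 11232 genes (0%) had a Benjamini-Hochberg adjusted p under 0.05, and the smallest adjusted p was 0.999991. An unadjusted p under 0.05 was found for 140 genes (1.25%), where 561.6 would be expected if no gene differed. Of these, 54 were higher in HFD+Can (0.481%) and 86 lower (0.766%). That split turned with the scaling of the arrays, to 86 higher and 71 lower after quantile normalization and to 91 higher and 21 lower with each array centred on its median. Median centring moved the median log2 difference of all genes to 0.16, from 0.0042 with the trimmed mean, so the gene lists described further on are also given relative to that median.

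The intervals say what size of change the fit over all 8 arrays could have missed. Their width rests on the spread within every group, and the HFD+Tel and chow mice differed more within their groups than the compared mice did. At the median, a 95% interval had a half-width of 0.435 log2 units. For 9970 genes (88.8%) the whole interval lay within 1 log2 unit of 0, so a 2-fold difference in either direction fell outside it. Estimates beyond 1 log2 unit were rare, 5 higher and 14 lower. In the same model 909 genes (8.09%) passed the adjusted threshold between HFD and chow, 578 higher (5.15%) and 331 lower (2.95%), and 725 had an estimate beyond 1 log2 unit. Both comparisons use the HFD arrays, so opposite signs are favoured, most of all in genes picked for a wide difference from HFD. No overlap or correlation between the comparisons was computed. Where both values of a gene are given further on, they do not measure a return towards chow. The HFD+Can and HFD arrays did not overlap for 2007 genes with HFD+Can on top (17.9%) and for 1745 with HFD+Can below (15.5%). In the brightest 25% of the genes these shares were 24.5% and 10.8%. The shares turn on the scaling too: with each array centred on its median they were 39.8% above and 3.55% below over all genes, and 51.3% and 0.855% among the brightest 25%. With quantile normalization they were 20.3% and 13.5% over all genes, and 18.8% and 15.9% among the brightest 25%. Counts of genes above or below in the lists that follow hold for the trimmed mean unless another scaling is named. An exact permutation test of 2 mice against 2 cannot give a p below 0.333.

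**Figure D1:**
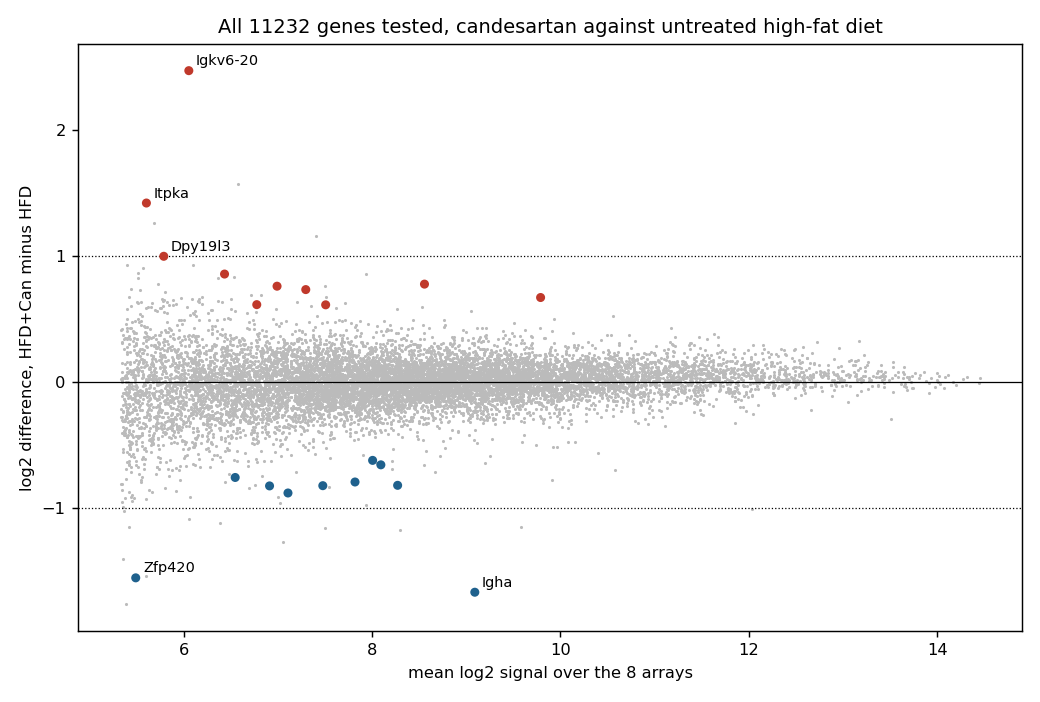
Log2 difference HFD+Can minus HFD (vertical axis) against mean log2 signal over the 8 arrays (horizontal axis), 1 point per gene, with the 20 genes ranked by p in red where HFD+Can was higher and in blue where it was lower; dotted lines mark 1 log2 unit. The cloud is centred on 0 (median 0.0042) and Igha stands apart among genes of middling signal at −1.67.

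With arrays scaled to the trimmed mean, the genes of the system that the drug acts on overlapped between the groups, with 1 exception among those tested. Agtr1a, which encodes the main mouse form of the receptor that candesartan blocks, had signals of 339 and 397 in HFD+Can fat, against 476 and 396 in HFD fat. The second HFD+Can array was level with the second HFD array, so the groups overlapped, and the log2 difference was −0.25 (95% interval −0.63 to 0.14; limma unadjusted p = 0.18). Agtr1b, the second receptor gene of mice, was too dim to test, with signals of 5.54 and 3.57 in HFD+Can fat and 2.39 and 12.6 in HFD fat.

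Agt, which encodes angiotensinogen, read 412 and 421 in HFD+Can fat and 391 and 366 in HFD fat, a log2 difference of 0.14 (−0.82 to 1.10). It was the 1 member of the renin-angiotensin list whose HFD+Can arrays both lay above both HFD arrays. Chow fat had far more, 1093 and 2482, and HFD minus chow was −2.12 (limma adjusted p = 0.0205). The HFD+Can mice therefore also lay below both chow mice. Ace, the converting enzyme, read 519 and 494 in HFD+Can fat against 491 and 749.7 in HFD fat, with overlapping arrays and a log2 difference of −0.26 (−0.81 to 0.29). Mme, the peptidase neprilysin, which can break down angiotensin peptides, read 777 and 971 against 806 and 737, a log2 difference of 0.17. Over the list, 14 of 21 genes were bright enough to test. Their median log2 difference was 0.035, with 1 above, 0 below and the other 13 overlapping. With each array centred on its median 6 were above and 0 below, and the median was 0.19 (0.031 relative to all genes).

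**Figure D2:**
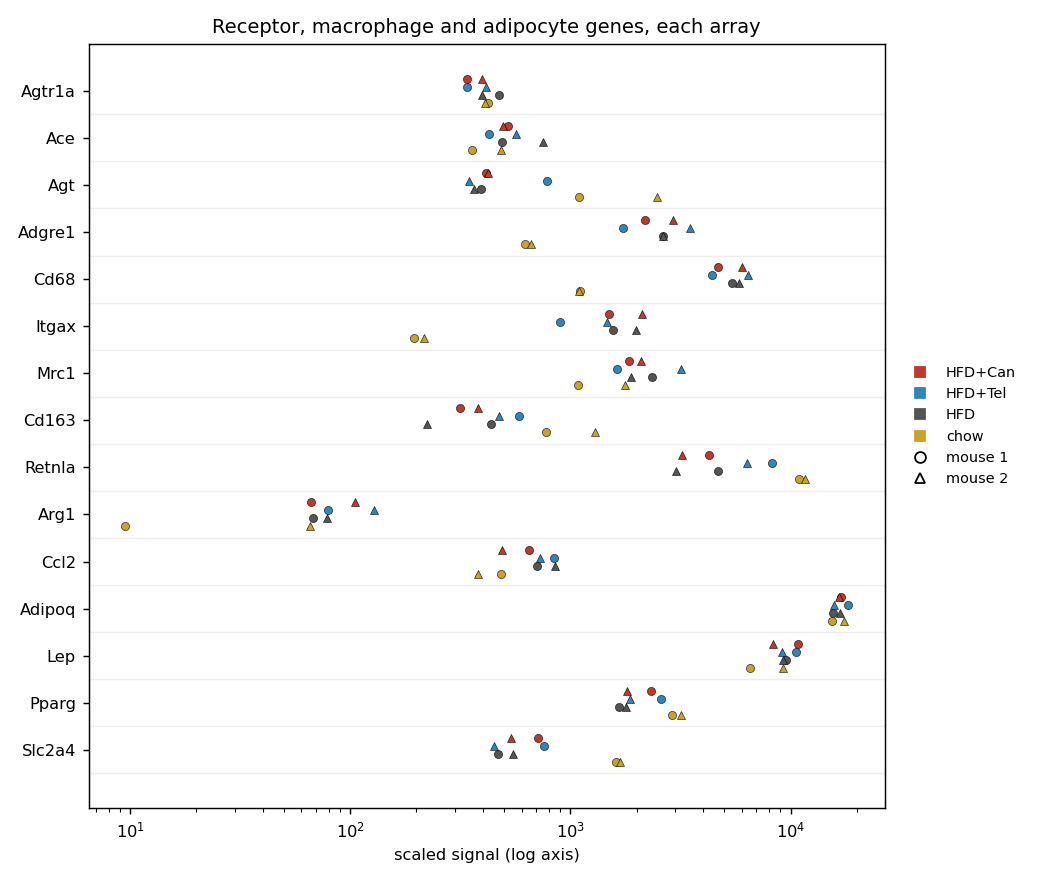
Scaled signal on a log axis (horizontal) of 15 genes of the renin-angiotensin system, macrophages and fat cells, 1 symbol per mouse, for HFD+Can, HFD+Tel, HFD and chow. The red HFD+Can symbols fall among or beside the grey HFD symbols in each gene, while the chow symbols of Adgre1, Cd68 and Itgax lie far to the left.

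The genes with the smallest unadjusted p are named here as the strongest candidates, none of which passed the adjustment (limma adjusted p = 0.999991 for all 20). They were taken from genes with arrays that do not overlap and a log2 difference of at least 0.58. Among the 10 that were higher in HFD+Can, 2 have well-known roles in metabolism or excitability. Kcnj11 encodes Kir6.2, the pore of the ATP-sensitive potassium channel. It was the brightest of the 10, with 1179.8 and 969.5 in HFD+Can fat, against 768 and 590.2 in HFD fat, and the log2 difference was 0.67 (0.16 to 1.18; limma unadjusted p = 0.0158). HFD minus chow was −0.54 for this gene, with chow signals of 962 and 989.7, and HFD+Tel fat read 1087 and 704.

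Nat8l encodes the enzyme that makes N-acetylaspartate, which brown fat cells use in lipid turnover. Its signals were 167 and 156 in HFD+Can fat and 105 and 86.5 in HFD fat, a log2 difference of 0.76 (0.27 to 1.25), and its other probe set gave 0.62. Hlx encodes a homeobox transcription factor. Its 4 values were tight within groups, 256 and 264 in HFD+Can fat and 165 and 176 in HFD fat, and its log2 difference was 0.61 (0.14 to 1.09). Flrt3, which encodes an adhesion protein of the cell surface, read 108 and 96.9 against 67.0 and 47.6, and its second probe set gave 0.18 where the first gave 0.85. The second array of HFD decided the value of Itpka, which encodes a kinase of inositol trisphosphate: the signals were 62.6 and 83.2 in HFD+Can fat and 48.1 and 15.2 in HFD fat, and the log2 difference of 1.42 was 0.58 without HFD mouse 2.

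Of the others of these 10, Lsm7 had a single probe set and 3 had further probe sets that gave smaller or opposite values. Lsm7, a part of the ring that binds RNA for decay and splicing, read 490.0 and 516 in HFD+Can fat and 335 and 258 in HFD fat (0.77). Gpr135, an orphan receptor, had a log2 difference of 0.73, and its second probe set 0.43. For Dpy19l3, which adds mannose to tryptophan in proteins, the brightest probe set gave 0.99 and the other 2 gave −0.19 to 0.019. For Nlgn2, which encodes an adhesion protein of inhibitory synapses, the brightest gave 0.61 and the other −0.25. The tenth was Igkv6-20, an immunoglobulin light chain segment described with the antibody genes.

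Among the 10 that were lower in HFD+Can, Igha came first of all genes, and it too is described with the antibody genes. Cap1, which encodes an actin-binding protein, had 2 probe sets that gave −0.82 and −0.84. Its signals were 274 and 209 in HFD+Can fat, against 441 and 406 in HFD fat (limma unadjusted p = 0.00725). Hes1, a transcriptional repressor switched on by Notch, read 77.5 and 125 in HFD+Can fat and 156 and 211 in HFD fat, a log2 difference of −0.88 (−1.49 to −0.27).

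Tnfrsf11a encodes RANK, the receptor for the osteoclast factor RANKL, and is also found on macrophages. It read 92.7 and 94.4 in HFD+Can fat and 147 and 170.0 in HFD fat, while chow fat had 56.8 and 56.5. The log2 difference HFD+Can minus HFD was −0.76 (−1.27 to −0.24), and HFD minus chow was 1.48 (limma adjusted p = 0.00709). Its second probe set, which was dimmer, gave −0.15. Lbh, a regulator of transcription, was placed likewise, with 219.6 and 142 in HFD+Can fat, 341 and 274 in HFD fat and 152 and 147 in chow fat. For Lbh the log2 difference HFD+Can minus HFD was −0.79 with the brightest probe set and −0.16 with the other.

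Zbed6, a repressor of Igf2 in muscle, read 90.8 and 108 in HFD+Can fat and 185 and 167 in HFD fat (−0.83; limma unadjusted p = 0.00267), and HFD+Tel fat was low as well at 80.1 and 86.0. Prdm2, a histone methyltransferase, was also low in both drug groups, with 241 and 210.3 in HFD+Can fat, 207 and 196 in HFD+Tel fat and 360.0 and 334 in HFD fat, but its other probe set gave −0.032. Ankzf1, which works in ribosome quality control, gave −0.82 with its brightest probe set and −0.34 and −0.20 with the others. Cklf, a chemokine-like factor, gave −0.66 with the brightest and −0.16 to 0.37 with its other 4. Zfp420, a zinc finger gene, had a log2 difference of −1.55 from dim signals, 23.1 and 24.8 in HFD+Can fat and 77.2 and 64.1 in HFD fat.

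**Figure D3:**
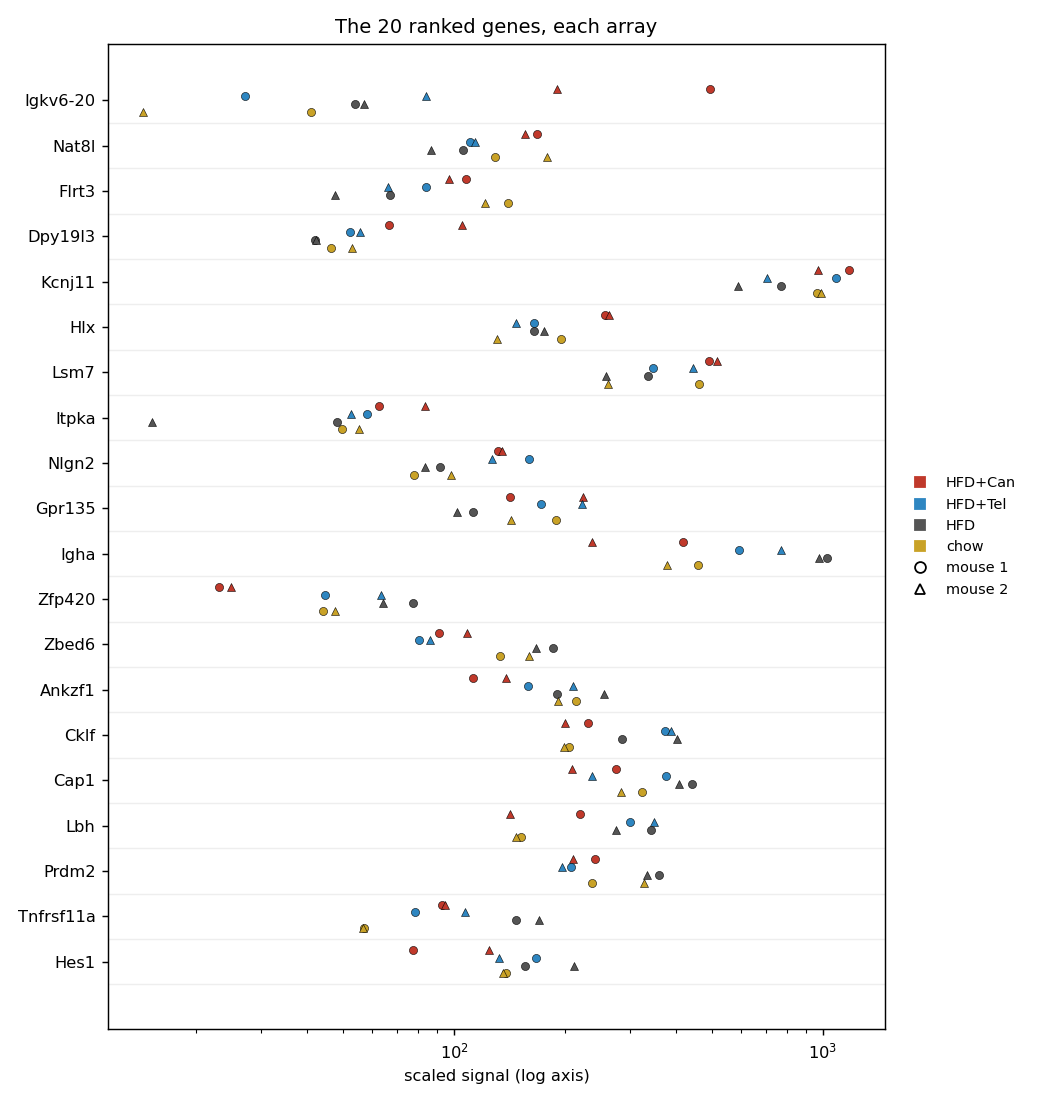
Scaled signal on a log axis (horizontal) of the 20 genes with the smallest unadjusted p, 10 higher and 10 lower in HFD+Can, 1 symbol per mouse and 4 groups. The red symbols lie outside the grey HFD pair in every gene by the way the genes were chosen, and in Zbed6 and Prdm2 the blue HFD+Tel symbols lie beside the red.

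Antibody genes were among the widest differences in both directions. They are made by B cells and plasma cells, which enter fat as it expands. Of the 19 genes with an estimate beyond 1 log2 unit, 6 were immunoglobulin genes, 3 of the 5 higher and 3 of the 14 lower. The widest on the lower side was Gm5785, a predicted gene with dim signals of 12.6 and 48.8 in HFD+Can fat and 75.4 and 93.5 in HFD fat (−1.76), and Igha came next. Igha, the constant region of IgA, had signals of 419 and 237 in HFD+Can fat, against 1025 and 978 in HFD fat. The HFD+Can mice were both far below both HFD mice, and near the chow mice at 457 and 378. The log2 difference was −1.67 (−2.26 to −1.08), the smallest unadjusted p of the comparison (limma, 0.000151), and its other 2 probe sets gave −1.53 and −1.46. HFD minus chow was 1.27 (limma adjusted p = 0.023).

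Igkv6-20, a variable segment of the kappa light chain, went the other way, with 495 and 189.7 in HFD+Can fat and 53.8 and 57.1 in HFD fat, a log2 difference of 2.47 (0.93 to 4.0; limma unadjusted p = 0.00565). Without HFD+Can mouse 1 its log2 difference was 1.78 and without HFD+Can mouse 2 it was 3.16. The remaining immunoglobulin genes, looked at after their values were seen, separated the mice rather than the groups. Of 27 probe sets for immunoglobulin genes and the joining chain, 1 had HFD+Can above, 3 below (all for Igha) and 23 overlapping arrays. Over all genes tested 17.9% were above and 15.5% below. All 27 were higher in HFD+Can mouse 1 than in HFD+Can mouse 2. Jchain, which joins IgA and IgM units, read 4050.0 and 985 in HFD+Can fat and 3021 and 2031 in HFD fat. Igkv6-14, another kappa segment, read 2672 and 38.4 in HFD+Can fat and 179 and 115 in HFD fat, so that 1 mouse made its log2 difference of 1.16. Many immunoglobulin variable segments resemble each other, and their probe sets may bind transcripts of more than the gene they are named for.

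Most B cell markers moved with these genes by mouse, but Blnk and Cd22 did not. Blnk read 1670 and 2224 in HFD+Can fat and 1645.5 and 2002 in HFD fat. Cd22 read 268 and 272 in HFD+Can fat and 360 and 296 in HFD fat. Of 12 markers 9 were tested, with a median log2 difference of −0.31, 0 above and 1 below. The median of the 9 relative to the HFD mean was 0.47 and −1.32 in the HFD+Can mice and 0.44 and −0.44 in the HFD mice, so the value of the group was that of HFD+Can mouse 2. Their summed signal was 21736 and 12384 in HFD+Can fat and 20029 and 18492 in HFD fat. Ms4a1, which encodes CD20, read 176 and 59.4 and 211 and 104, and Ighm, the IgM constant region, 14175 and 8556 and 13538 and 13507, HFD+Can first. The part of B cell number in the Igha value was not tested. In pieces of whole fat, fewer cells of a type and less RNA per cell cannot be told apart.

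**Figure D4:**
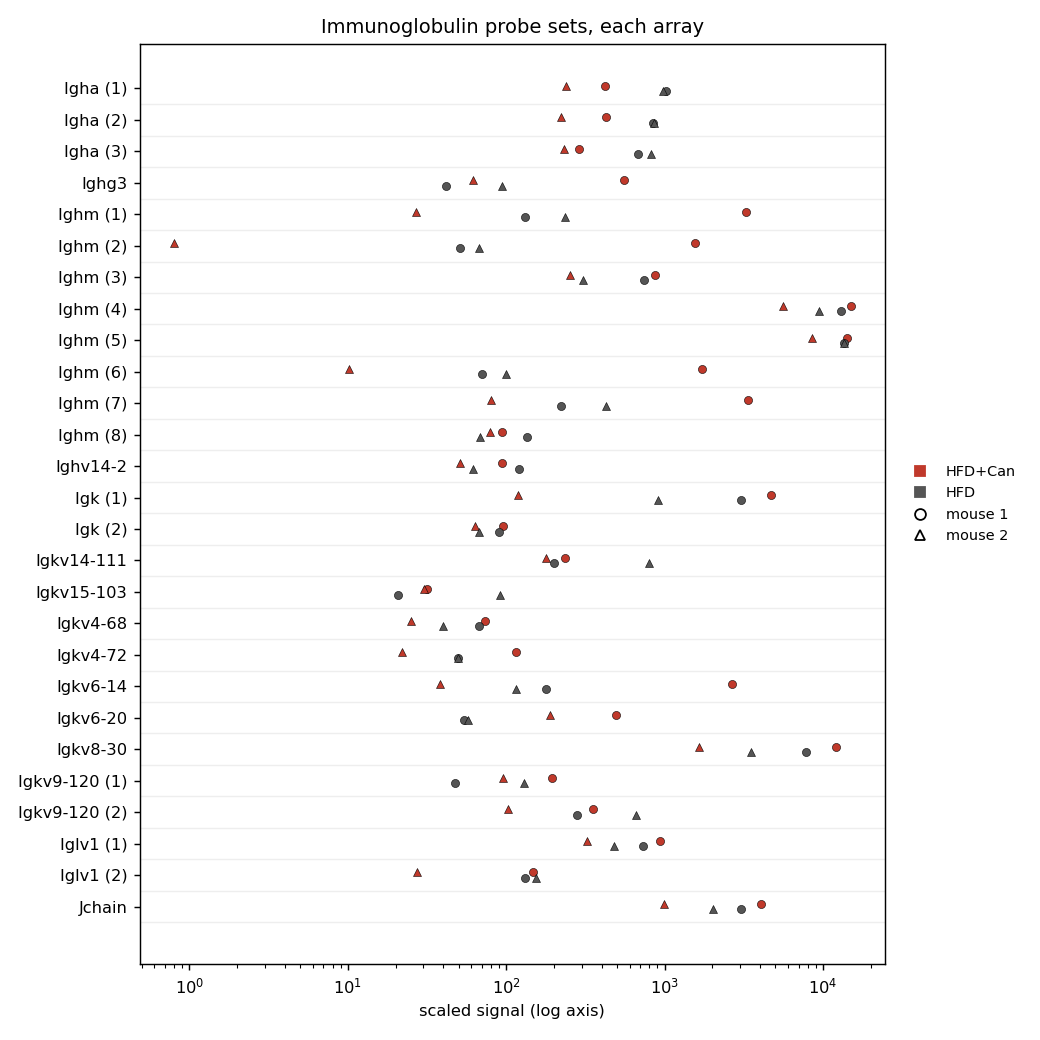
Scaled signal on a log axis (horizontal) of 27 probe sets for immunoglobulin genes and Jchain, numbered where a gene has several, for the 2 HFD+Can and 2 HFD mice. HFD+Can mouse 1 (red circles) lies right of HFD+Can mouse 2 (red triangles) in all 27, and in the 3 Igha probe sets both lie left of the HFD mice.

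Macrophage genes had overlapping signals in HFD+Can and HFD fat, in both far above those of chow fat. Adgre1, which encodes the macrophage marker F4/80, had signals of 2172 and 2935 in HFD+Can fat, 2629 and 2632 in HFD fat and 620.3 and 660.0 in chow fat. The HFD+Can mice lay on either side of the HFD mice, and the log2 difference was −0.059 (−0.71 to 0.59; limma unadjusted p = 0.841). Cd68, a lysosomal protein of macrophages, averaged 5357 ± 964 in HFD+Can fat and 5621 ± 311 in HFD fat (SD, n = 2 each), a difference of −0.080 (−0.51 to 0.35). Itgax, which encodes CD11c and marks macrophages recruited in obesity, read 1503 and 2106 in HFD+Can fat, 1559.9 and 1987 in HFD fat and 195 and 217 in chow fat. Its log2 difference was 0.015 (−0.57 to 0.60), beside a value of 3.10 for HFD minus chow (limma adjusted p = 0.000755).

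Genes of alternatively activated and resident macrophages were also close. Mrc1, the mannose receptor CD206, read 1849 and 2099.7 in HFD+Can fat and 2353 and 1877 in HFD fat (−0.093). Cd163, the haemoglobin scavenger receptor, read 317 and 379 and 437 and 222 (0.15), and HFD minus chow was −1.68. Retnla, a secreted marker of alternative activation, read 4280.1 and 3217 in HFD+Can fat and 4699.7 and 3004 in HFD fat (−0.018), both well under the chow values of 10882 and 11626. Arg1, arginase of the same cells, was dim and wide, with 66.6 and 105 against 67.9 and 78.5 and an interval of −1.52 to 1.92. All 4 genes overlapped between the groups.

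Counted by list, 20 of 21 pan macrophage genes were tested, with 1 above, 1 below and a median log2 difference of −0.055. With each array centred on its median 9 were above and 0 below, and the median was 0.097 (−0.059 relative to all genes). Without HFD+Can mouse 1 the median of the list was 0.097 and without HFD+Can mouse 2 it was −0.13. Itgam, which encodes CD11b, had the smallest p of that list, 182 and 249.5 in HFD+Can fat and 229.7 and 291 in HFD fat (−0.28; limma unadjusted p = 0.279), followed by the growth factor receptor Csf1r (−0.11). The summed signal of the list was 72139 and 82031 in HFD+Can fat, 77075 and 78792 in HFD fat and 32209 and 35386 in chow fat. For the M2 list the median of 18 genes was −0.076, with 0 above and 3 below (2 above and 0 below with median centring), among them the lectin Mgl2 (152 and 138 in HFD+Can fat against 209.5 and 169 in HFD fat). For lipid-laden macrophages and lysosomes the median of 17 was 0.011, with 2 above and 0 below. Acp5, an acid phosphatase, was 1 of the 2 (3095 and 2967 in HFD+Can fat and 2628 and 2598 in HFD fat).

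Chemokine genes lay on both sides, and 2 of them, Ccl2 and Cxcl1, had an unadjusted p under 0.05. Ccl2, which draws monocytes into fat, read 651 and 488 in HFD+Can fat, against 706 and 847 in HFD fat and 485 and 381 in chow fat. Both HFD+Can mice lay below both HFD mice, with a log2 difference of −0.46 (−0.90 to −0.011; limma unadjusted p = 0.0458, adjusted p = 0.999991). HFD+Tel fat read 838 and 727. Cxcl1, which draws neutrophils, read 75.8 and 147 in HFD+Can fat and 204 and 194 in HFD fat (−0.91, −1.70 to −0.13; limma unadjusted p = 0.0273), and its other 2 probe sets gave −0.55 and −0.47. Ccl7, a relative of Ccl2, overlapped at 356 and 189 against 309 and 383 (−0.41). Over the list of chemokines and receptors, without Ccl2, 15 of 18 were tested, 0 were above, 1 was below and the median was −0.076. On the higher side, Cxcl9, which draws T cells, had 0.42 (−0.69 to 1.53) and Ccl8 0.18 (−0.56 to 0.92), both with overlapping arrays. Ccl5, counted with the M1 list, had 0.20. Ccl3 was dim, at 74.4 and 83.4 in HFD+Can fat and 83.8 and 109 in HFD fat (−0.28, −1.87 to 1.31). Over the M1 and CD11c list, 9 of 18 were tested, the median was −0.054, and Tnf, which encodes the cytokine TNF, was too dim to test, with 16.6 and 46.5 in HFD+Can fat and 48.6 and 41.5 in HFD fat.

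Other immune lists had medians on both sides of 0. MHC class II genes had a median of −0.038 (8 tested, 1 below), with their master regulator Ciita at −0.29. Interferon-response genes had 0.026 (15 tested, 1 above), with Ifit1 at 0.31 and Usp18 at 0.27. T and NK cell genes had −0.041 (9 tested, 0 above or below), mast cell genes −0.14 (6 tested, 2 below, the receptor Kit at −0.40 and Gata2 at −0.17). Over all genes 17.9% were above and 15.5% below. Estimates were under 0 for 7 MHC class II genes and over 0 for 1, and for 5 and 1 mast cell genes. The mast cell median was −0.47 without HFD mouse 1 and 0.20 without HFD mouse 2. With median centring the MHC class II and mast cell lists each had 1 above and 1 below. Gzma, a granzyme of killer cells, had dim signals of 94.7 and 37.2 in HFD+Can fat and 75.2 and 87.5 in HFD fat, with an interval of −1.82 to 0.92.

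Mitochondrial and lipid genes had small differences that were mostly on the higher side. They run the oxidation of fuel and the building, storage and release of fat. Of 27 genes of the respiratory chain and ATP synthase 25 were tested: 17 had both HFD+Can arrays above both HFD arrays, 1 had them below and the other 7 overlapped. In the brightest 25% of all genes, where most of these genes lie, 24.5% were above and 10.8% below. The median log2 difference of the list was 0.14, and that of the brightest 25% of genes was 0.032. The median of the list relative to the HFD mean was 0.15 and 0.12 in the HFD+Can mice and 0.029 and −0.029 in the HFD mice, so both HFD+Can mice were on the higher side. The HFD+Tel mice were on that side too, at 0.35 and 0.098, as were the chow mice, at 0.57 and 0.24. No member passed the test, and the smallest unadjusted p was 0.122 (limma). The count was 15 above and 2 below with quantile normalization, beside 18.8% and 15.9% of the brightest 25% of genes, and 20 above and 0 below with median centring, beside 51.3% and 0.855%.

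Among the members, Cox4i1, a core subunit of cytochrome c oxidase, averaged 9032 ± 151 in HFD+Can fat and 8005 ± 367 in HFD fat (SD, n = 2 each), a log2 difference of 0.17 (−0.057 to 0.41). Cycs, which encodes the electron carrier cytochrome c, read 6028 and 5981 in HFD+Can fat and 5439 and 4686 in HFD fat (0.25, −0.10 to 0.60). The ranges of these estimates were narrow: over the 25 members they ran from −0.085 to 0.31. HFD minus chow was −0.30 for Cox4i1 and −0.31 for Cycs. Relative to the median of all genes, the list stood at 0.13 with the trimmed mean, 0.074 with quantile normalization and 0.13 with median centring. Genes of 1 pathway in 1 mouse share that mouse and its array, so these counts describe 4 mice and not 25 independent measurements.

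The promoters of these genes are shown because some of them share a binding motif of NRF1, nuclear respiratory factor 1, a transcription factor of mitochondrial genes. The core of the NRF1 motif, which allows a C or a T at 1 of its positions, was searched on both strands from 250 bases before to 50 bases after each gene's start in RefSeq promoters (GRCm38.p6). The motif was found for 5 of the 19 tested members with a window (26.3%), for 5.87% of all tested genes with one and for 2.56% of all 27025 genes in the table. With any base allowed at that position these shares were 31.6%, 11.8% and 5.19%. In lists described next, the core with a C or a T was found for 0 of 15 TCA cycle genes and 2 of 16 of fatty acid oxidation. It was found for 0 of 17 genes of de novo lipogenesis and 1 of 14 of branched-chain amino acid breakdown. The 3 sequences that follow are the 250 bases before the start, written 5' to 3' on the gene's strand with the motif in capitals, of the genes that carry it there. Atp5c1, the gamma subunit of ATP synthase (chr2:10080433-10080682, minus strand), had HFD+Can above HFD. Cox6a1, a subunit of cytochrome c oxidase (chr5:115348959-115349208, minus strand), overlapped. Sdhd, a membrane anchor of succinate dehydrogenase (chr9:50603850-50604099, minus strand), overlapped as well.
Atp5c1: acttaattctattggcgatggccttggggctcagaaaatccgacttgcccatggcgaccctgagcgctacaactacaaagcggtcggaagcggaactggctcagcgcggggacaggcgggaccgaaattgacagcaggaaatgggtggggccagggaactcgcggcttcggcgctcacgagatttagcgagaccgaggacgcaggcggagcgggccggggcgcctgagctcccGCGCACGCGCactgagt
Cox6a1: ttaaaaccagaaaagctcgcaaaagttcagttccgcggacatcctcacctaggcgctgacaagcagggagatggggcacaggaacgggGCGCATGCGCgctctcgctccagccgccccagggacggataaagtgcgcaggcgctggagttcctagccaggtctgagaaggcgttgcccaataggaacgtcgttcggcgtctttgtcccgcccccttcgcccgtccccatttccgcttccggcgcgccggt
Sdhd: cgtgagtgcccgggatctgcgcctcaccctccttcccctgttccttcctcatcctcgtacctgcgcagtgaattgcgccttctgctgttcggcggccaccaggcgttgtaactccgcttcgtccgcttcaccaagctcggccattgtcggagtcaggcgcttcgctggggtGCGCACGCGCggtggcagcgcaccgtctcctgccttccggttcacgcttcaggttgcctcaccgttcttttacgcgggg

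Atp5c1 read 7206 and 7428 in HFD+Can fat and 6690.2 and 6209 in HFD fat, with a log2 difference of 0.18 (−0.17 to 0.54). Cox6a1 read 11143 and 11527 in HFD+Can fat and 10582 and 11646 in HFD fat (0.030, −0.18 to 0.24). Sdhd read 2098 and 1935 in HFD+Can fat and 2027 and 2038 in HFD fat (−0.013, −0.34 to 0.31). Of the 5 genes with the motif, 3 had HFD+Can above HFD (Atp5c1, and Atp5o and Uqcrc1, whose copies lie after the start), against 17 of the 25 tested members of the list. A match of these letters is a description of the sequence and says nothing of binding.

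The neighbouring pathways had like values. Beside their counts stand 17.9% above and 15.5% below over all genes, and 24.5% and 10.8% in the brightest 25%. For the TCA cycle, which feeds the respiratory chain, 16 genes had a median of 0.10 with 9 above and 0 below. With quantile normalization 6 of them were above and 1 below. With median centring 12 were above and 0 below, beside 51.3% above in the brightest 25% of genes. Idh3a, a subunit of isocitrate dehydrogenase, read 4967 and 5627 in HFD+Can fat and 4577 and 4479.8 in HFD fat (0.22, −0.068 to 0.51), and the pyruvate carboxylase gene Pcx had 0.20. For fatty acid oxidation 17 genes had a median of 0.12 with 9 above and 0 below. Slc25a20, which carries acylcarnitines into mitochondria, read 1496 and 1699 in HFD+Can fat and 1376 and 1105 in HFD fat (0.37, −0.18 to 0.92), and Etfb, an electron carrier of the same pathway, had 0.26. For the breakdown of branched-chain amino acids 15 genes had a median of 0.10 with 7 above and 0 below, and without HFD+Can mouse 1 that median was −0.022. Without HFD mouse 2 the median was 0.053 for the TCA cycle and 0.074 for fatty acid oxidation. Aldh6a1, an enzyme of valine breakdown, had 0.24, and Dld, a subunit shared with pyruvate dehydrogenase, 0.16.

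Genes that make fat were placed likewise, again with none past the test. Over all genes 17.9% were above and 15.5% below, and in the brightest 25% these shares were 24.5% and 10.8%. For de novo lipogenesis 21 genes had a median of 0.13 with 11 above and 0 below. With quantile normalization 8 of them were above and 1 below. Relative to the HFD mean, the list median was 0.14 and 0.11 in the HFD+Can mice and 0.43 and 0.21 in the HFD+Tel mice. Lpin1, a phosphatase of triglyceride synthesis, read 2687 and 2686 in HFD+Can fat, against 2206 and 2125 in HFD fat (0.31, −0.027 to 0.65; limma unadjusted p = 0.0666). Thrsp, a lipogenic gene answering to thyroid hormone and carbohydrate, read 7110.4 and 6823 in HFD+Can fat, 5749 and 5817 in HFD fat and 15435 and 13413 in chow fat. Its log2 difference was 0.27 for HFD+Can minus HFD, beside −1.32 for HFD minus chow (limma adjusted p = 0.00175). For lipolysis and the lipid droplet 12 genes had a median of 0.11 with 6 above and 0 below, led by Pde3b, through which insulin restrains lipolysis (2999 and 3194 in HFD+Can fat and 2653 and 2546 in HFD fat), and the monoglyceride lipase Mgll (0.17). For cholesterol synthesis 15 genes had 0.16 with 6 above and 1 below, the 1 below being the regulator Srebf2 at −0.25, while Hmgcs1, an early enzyme of the pathway, had 0.21, and the median was 0.073 without HFD mouse 2. For thermogenic genes 9 had 0.18 with 3 above and 0 below. Cidea had 0.26 and Cox8b, a subunit found in brown fat and muscle, 0.50 with an interval of −0.65 to 1.65.

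Values that bear on the amount of fat cells moved with these lists only in part. Of 20 genes of adipocyte identity 16 were tested, with 3 above, 0 below and a median of 0.068. Relative to the HFD mean, that median was 0.15 and 0.011 in the HFD+Can mice and −0.038 and 0.038 in the HFD mice. The summed signal was 157758 and 147399 in HFD+Can fat and 143272 and 150565 in HFD fat, so HFD+Can mouse 2 lay between the HFD mice. The part of cell makeup in the mitochondrial and lipid values was not tested.

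Fat cell genes themselves differed little in size. Pparg, the master regulator of fat cells, read 2325 and 1807 in HFD+Can fat and 1659.8 and 1792 in HFD fat, with the second HFD+Can array hardly above the higher HFD array, and a log2 difference of 0.25 (−0.17 to 0.67; limma unadjusted p = 0.209). Chow fat had 2883 and 3175, and HFD minus chow was −0.81 (limma adjusted p = 0.0333). Slc2a4, the insulin-responsive glucose transporter GLUT4, overlapped, with 709.8 and 538 in HFD+Can fat and 467 and 546 in HFD fat (0.29, −0.27 to 0.85). Its chow signals were 1615 and 1673, above all mice of the other 3 groups. Lep, which encodes leptin, averaged 9561 ± 1753 in HFD+Can fat and 9396 ± 232 in HFD fat (SD, n = 2 each), a log2 difference of 0.013 (−0.40 to 0.42). Adipoq had 0.048 (−0.20 to 0.29).

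Targets of PPARgamma had a median of 0.048 over 13 genes, with 3 above and 1 below. Ehhadh, a peroxisomal enzyme of fat oxidation, had the smallest p of these, 520.4 and 404 in HFD+Can fat against 331 and 322 in HFD fat (0.49, −0.28 to 1.26). Markers that follow fat mass or fat cell size had a median of 0.13 over 9 genes, with 3 above and 0 below. That median was 0.014 without HFD+Can mouse 1 and 0.027 without HFD mouse 1. With quantile normalization it was 0.071 (0.051 relative to all genes). Beside the counts of both lists stand 17.9% above and 15.5% below over all genes, and 24.5% and 10.8% in the brightest 25%. Cavin1, a coat protein of caveolae, was the 1 gene of any metabolic list with an unadjusted p under 0.05. It read 3372 and 3237 in HFD+Can fat, against 2509 and 2579 in HFD fat, 3847 and 3161 in HFD+Tel fat and 3229 and 3748 in chow fat (0.38, 0.075 to 0.68; limma unadjusted p = 0.0201). Its other 2 probe sets gave −0.034 and 0.19. Cav2, which encodes caveolin 2 of the same membrane pits, read 10205 and 10022 and 9281 and 8177, HFD+Can first (0.22).

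Insulin signalling genes had a median of 0.013 (19 tested, 4 above, 5 below), with the growth factor Igf1 at 3672 and 3972 in HFD+Can fat and 3437 and 3074 in HFD fat. Genes against oxidative stress and of the NADPH oxidase had −0.052 (18 tested, 3 above, 5 below), with catalase, Cat, at 0.28 and the lipid peroxidase Gpx4 at 0.13. With each array centred on its median the insulin list had 8 above and 1 below, and the oxidative stress list 6 and 0. Over all genes 17.9% were above and 15.5% below with the trimmed mean. The unfolded protein response had 0.046 (20 tested, 3 above, 1 below). In that list Asns, asparagine synthetase, read 904 and 823 in HFD+Can fat, against 672 and 687 in HFD fat and 1707 and 1395 in chow fat (0.35, −0.031 to 0.72; limma unadjusted p = 0.0676), and the chaperone partner Dnajb9 had 0.20.

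Endothelial genes, which mark the lining of vessels, had more members with both HFD+Can arrays below both HFD arrays than any other list, with arrays scaled to the trimmed mean. All 16 were tested: 0 were above, 7 below and 9 overlapped, with a median log2 difference of −0.11. Among all genes tested 15.5% were below. Kdr, the main receptor for VEGF, read 219 and 217 in HFD+Can fat, 264 and 306 in HFD fat and 428 and 508 in chow fat. The 2 HFD+Can mice were nearly equal and below both HFD mice (−0.38, −0.74 to −0.019; limma unadjusted p = 0.0412, adjusted p = 0.999991). HFD+Tel fat read 208 and 231, so Kdr was as low there. Flt1, the second VEGF receptor, read 158 and 206 in HFD+Can fat and 233 and 233 in HFD fat (−0.37, −0.78 to 0.034), with its other 3 probe sets at −0.40 to −0.22. The markers Cdh5, Vwf, Gpihbp1 and Plvap were not lower: they had log2 differences of 0.13, 0.049, 0.072 and 0.033. The summed signal of the list was 10311 and 11317 in HFD+Can fat and 11715 and 11032 in HFD fat, which overlap. The count turned with the scaling: with each array centred on its median 5 were above and 2 below, and with quantile normalization 0 were above and 7 below. The list's median was 0.045 with median centring (−0.11 relative to all genes) and −0.11 with quantile normalization, and it was −0.043 without HFD+Can mouse 1.

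Smooth muscle and pericyte genes, which wrap those vessels and carry angiotensin receptors, had a median of −0.015 (12 tested, 2 above, 2 below). Over all genes 17.9% were above and 15.5% below. Estimates in the list ran from −0.28 to 0.23, 4 over 0 and 8 under 0. With each array centred on its median 2 were above and 0 below. The members with the smallest p, Notch3 and Rgs5, both lay on the lower side. Notch3, a receptor of mural cells, read 312 and 301 in HFD+Can fat and 377 and 367 in HFD fat (−0.28, −0.58 to 0.020; limma unadjusted p = 0.0635), and its other probe set gave −0.30. Rgs5, a pericyte gene that damps receptor signals, read 2906 and 2587 and 3154 and 3114, HFD+Can first (−0.19), and its other 3 probe sets gave −0.65 to −0.45.

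Matrix and fibrosis genes had a median of −0.037 over 25, with 1 above and 4 below (11 above and 1 below with median centring). The proteoglycan Vcan was the 1 above, 305 and 389 in HFD+Can fat against 273 and 291 in HFD fat (0.29), but its other 2 probe sets gave −0.34 and −0.015. The matrix protein Tnc had −0.30 and overlapped. Metalloproteinases and their inhibitors had −0.061 (13 tested, 2 below). Timp3, an inhibitor held in the matrix, read 1053 and 1059 in HFD+Can fat and 1117 and 1529 in HFD fat (−0.31), and stromelysin, Mmp3, read 214 and 249.7 against 299 and 263 and 30.2 and 46.8 in chow fat. Progenitor and stromal genes had 0.014 (13 tested, 1 above), with Cd55 at 0.22 and Dpp4 at −0.20.

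Immediate early genes, which cells switch on within minutes of a stimulus or of handling, separated 1 mouse. Their median log2 difference was −0.28 over 15 genes, with 0 above and 5 below, beside 17.9% and 15.5% of all genes. With quantile normalization 0 were above and 4 below. With each array centred on its median 2 were above and 3 below, beside 39.8% and 3.55% of all genes. Relative to the HFD mean, the median was −0.59 and 0.076 in the HFD+Can mice and −0.058 and 0.058 in the HFD mice, so the lower value was that of HFD+Can mouse 1. Ier3 read 242 and 396 in HFD+Can fat and 423 and 484 in HFD fat (−0.55, −1.13 to 0.039; limma unadjusted p = 0.0637). Jund, a subunit of the AP-1 factor, was lower in both mice, 1251 and 1262 against 1378 and 1682 (−0.28). Egr2 read 348 and 499.9 in HFD+Can fat and 502 and 525 in HFD fat (−0.30), and its second probe set gave 0.13.

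Mesothelial genes, which mark the membrane over the fat pad, were low in the same mouse. All 10 tested had estimates under 0, yet 0 were below, because HFD+Can mouse 2 was as high as the HFD mice. Their median relative to the HFD mean was −0.60 and 0.17 in the HFD+Can mice and −0.20 and 0.20 in the HFD mice, and their summed signal was 3996 and 6742 in HFD+Can fat and 5219 and 6978 in HFD fat. Wt1, a transcription factor of that membrane, read 87.9 and 114 and 108 and 142, and the keratin Krt8 95.2 and 133 and 119.9 and 158, HFD+Can first. Whether a smaller share of membrane in that piece of fat took part in the immediate early values was not tested.

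Lists for the clock, hormones and other tissues gave the remaining values. Circadian clock genes had a median of −0.083 (15 tested, 3 above, 5 below), with the clock gene Per1 at 0.36 and the repressor Ciart at −0.44 from dim signals. Genes that answer to corticosteroids had −0.022 (12 tested, 0 above, 3 below). Over all genes 17.9% were above and 15.5% below. These counts turned with the scaling. With each array centred on its median 4 corticosteroid genes were above and 0 below, with a median of 0.13 (−0.026 relative to all genes). The clock list then had 4 above and 4 below. The metallothionein Mt2 read 4124 and 3825 in HFD+Can fat and 5086 and 4864 in HFD fat (−0.32, −0.78 to 0.13), and Mt1 had −0.13. Cell cycle genes had −0.038 (18 tested, 2 below), with the replication clamp Pcna at −0.076 and the mitotic motor Kif11 at −0.31 with an interval of −2.0 to 1.37. Skeletal muscle genes had −0.060 and nerve genes 0.025 (4 tested each, 0 above or below). In them Acta1 and Actn3 of muscle had 0.23 and −0.24, and Cnp and Pmp22 of myelin 0.19 and 0.16. Of the neutrophil list 2 of 10 genes were tested and of the red blood cell list 1 of 7.

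**Figure D5:**
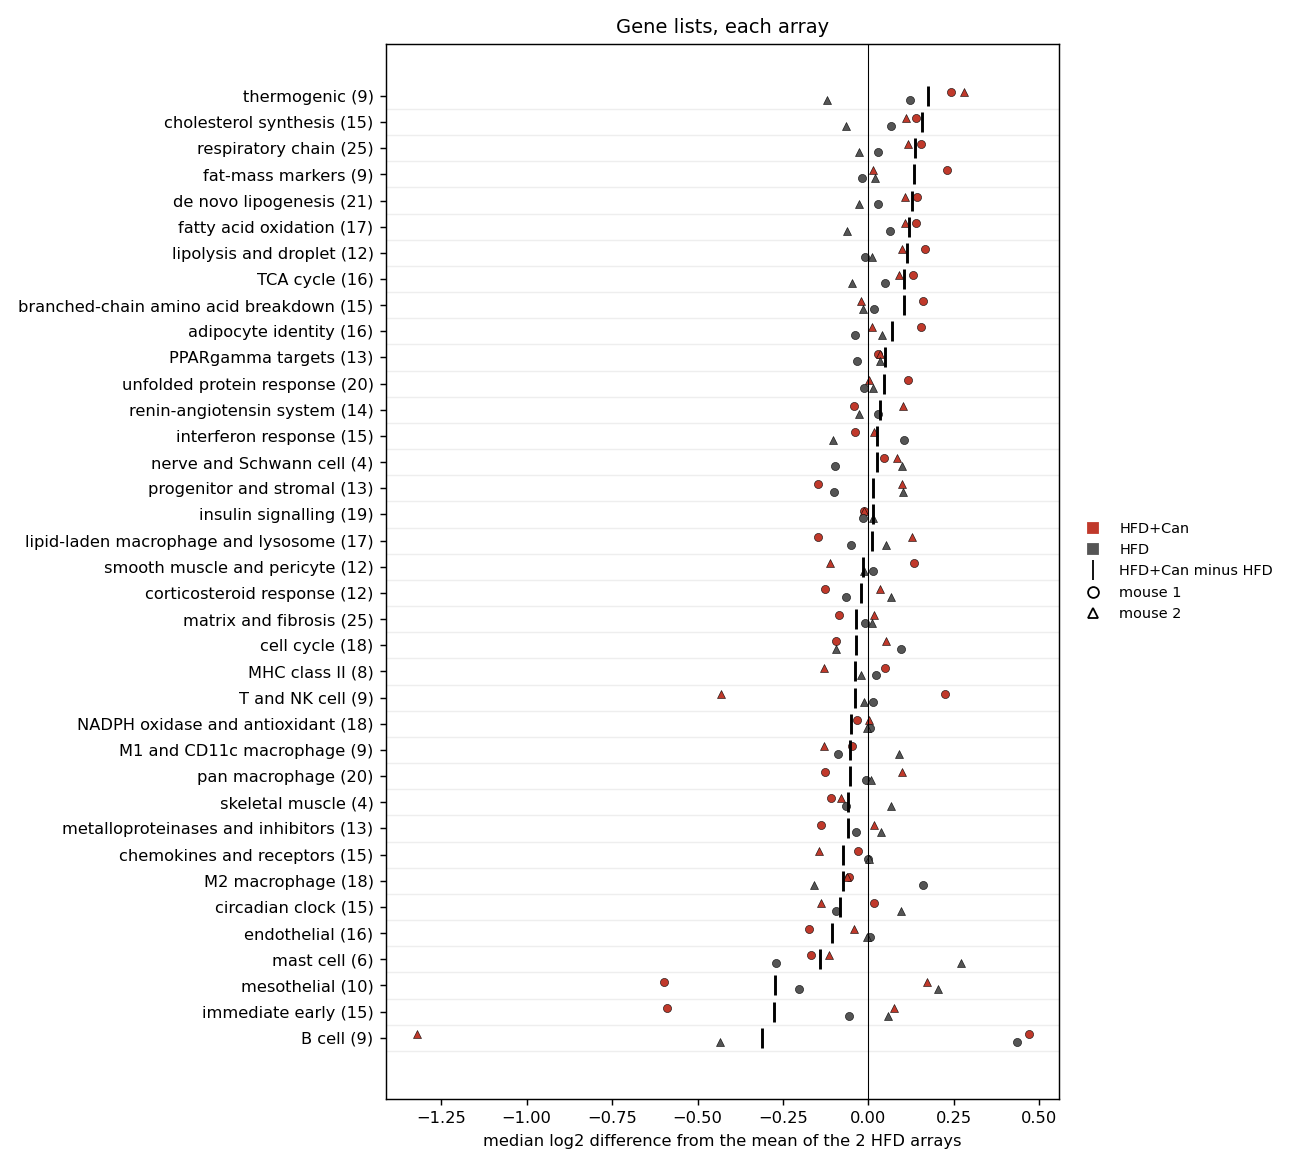
Median log2 difference of each gene list from the mean of the HFD arrays (horizontal axis), for each HFD+Can and HFD mouse, with the number of genes tested in brackets and a black bar at the median HFD+Can minus HFD difference. Mitochondrial and lipid lists sit at 0.10 to 0.18 with both HFD+Can mice right of both HFD mice in most, while the mesothelial, immediate early and B cell bars each follow 1 HFD+Can mouse.

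Candesartan and telmisartan, 2 blockers of the same receptor at the same dose and for the same 5 weeks, were 1 matched pair of compounds. Both are built on a benzimidazole joined to a biphenyl group; candesartan carries a tetrazole on the biphenyl where telmisartan carries a carboxylic acid, and telmisartan has a further benzimidazole. Between HFD+Can and HFD+Tel 0 genes (0%) passed the adjusted threshold (limma), and the smallest adjusted p was 0.484. An unadjusted p under 0.05 was found for 550 genes (4.9%), 381 higher in HFD+Can (3.39%) and 169 lower (1.5%). For 9506 genes (84.6%) the 95% interval of the difference lay within 1 log2 unit of 0.

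Some genes of alternatively activated macrophages lay apart between the drugs, without passing the adjustment. Retnla read 4280.1 and 3217 in HFD+Can fat and 8221 and 6351 in HFD+Tel fat, so that the groups did not overlap (−0.96, −1.48 to −0.44; limma unadjusted p = 0.00244, adjusted p = 0.924). The HFD mice, at 4699.7 and 3004, lay with the HFD+Can mice. Mgl2 read 152 and 138 in HFD+Can fat and 543 and 224 in HFD+Tel fat (−1.27, −2.06 to −0.48), with the second HFD+Tel mouse far below the first. Itgax went the other way, with 1503 and 2106 in HFD+Can fat and 897 and 1469.9 in HFD+Tel fat (0.63, 0.049 to 1.21; limma adjusted p = 0.924). Other members of these lists were placed otherwise: Ccl2, in the list of Itgax, had −0.47, and Egr2 of the M2 list had 0.26. The median HFD+Can minus HFD+Tel difference was −0.35 for the M2 list and 0.069 for the M1 and CD11c list.

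Of the ranked genes, Igkv6-20 differed by 2.69 (1.15 to 4.22), Hlx by 0.74 (0.26 to 1.21), Igha by −1.10 (−1.69 to −0.51), Cklf by −0.83 (−1.25 to −0.40) and Lbh by −0.87 (−1.39 to −0.35), HFD+Can minus HFD+Tel. Cidea, a lipid droplet gene of brown and beige fat, read 226 and 167 in HFD+Can fat and 103 and 104 in HFD+Tel fat (0.90, 0.34 to 1.47). None of these passed the adjustment (limma adjusted p = 0.924 for each). Agtr1a differed by −0.028 (−0.41 to 0.35) and Adipoq by −0.020 (−0.27 to 0.23), intervals that hold 0 and leave out 2-fold differences.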

How the data were processed

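Total RNA of epididymal fat was hybridized to 1-colour Affymetrix mouse genome arrays with 45101 probe sets, 1 per mouse, in 4 groups of 2 taken from the sample titles. For each probe set the authors deposited 1 linear signal intensity, computed in the GeneChip Analysis Suite, per the series design text. How that software summarised and scaled the probes is not given in the sources used here. Every array was brought to 1 shared 2%-trimmed mean, floored at 6.69 (the 20th percentile) and put on a log2 scale. Probe sets whose mean reached the 50th percentile (22519) stayed in, and the brightest with exactly 1 symbol stood for each gene (11232 genes). Gene symbols came from the platform annotation, which lists 34958 probe sets with 1 symbol, 932 with several and leaves 9160 unlisted. limma 3.58.1 (R 4.3.3) fitted 4 group means over all 8 arrays with an intensity trend (4 residual degrees of freedom), two-sided, with Benjamini-Hochberg adjustment over all genes. Figures were drawn with Python 3.11.15. The code was tested on simulated data.

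Genes were named by a rule: per direction the 10 smallest unadjusted p with arrays that do not overlap and a log2 difference of at least 0.58 (clone names skipped), the 2 smallest p of each list with 4 or more tested members (37 of 40 lists), and 17 genes always named. Further genes in the text were picked with their values in view. The members and lists were chosen with earlier results of these data known. Depth does not apply to arrays; their number limits the precision. The p-values measure the spread between mice of this study.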

Additional observations from a re-analysis of the deposited data

How the results depend on the processing

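The count of 0 genes between HFD+Can and HFD, and between HFD+Can and HFD+Tel, held under every alternative run except the omission of the filter on dim probe sets. Without that filter (18193 genes) 2 genes were called higher and 4 lower in HFD+Can than in HFD, 600 had an unadjusted p under 0.05, and 6 were called between the drugs. The 6 against HFD were Hamp2, Ifna2, Muc1, Obp2a, Pate14 and Rapsn, each with 3 to 6 of its 8 arrays at the floor. The number of genes at an unadjusted p under 0.05, 140 as reported, was 76 with a filter at the 70th percentile, 496 with only the 4 HFD+Can and HFD arrays, 366 with every probe set on its own and 250 without both HFD+Tel arrays, an alternative chosen after seeing the data. Leaving out 1 array at a time gave 55 (without HFD mouse 2) to 249 (without HFD+Tel mouse 2; 248 without HFD+Tel mouse 1). The cause of these shifts was not tested. The 20 ranked genes kept their sign in all 390 values recomputed, 372 of them within 1 SD of the replicates. That is no measure of robustness: they were chosen with arrays that do not overlap, so leaving out a mouse could not turn their sign. Alternatives that change only the statistical model, or leave out HFD+Tel or chow arrays, also leave every log2 difference as it was. With such values counted in, 26 of 37 list medians changed sign under at least 1 alternative (60 of 740 values). Of the 83 other named genes 26 did (39 of 1644 values). With the replicate number as a block, 0 genes were called and 178 had an unadjusted p under 0.05. The mice share only a number: replicate differences correlated between groups at −0.041 (HFD+Can with chow) to 0.21 (HFD+Can with HFD+Tel). Each group has 2 mice, so a difference under about 0.435 log2 units is within the typical interval. The 2809 probe sets without exactly 1 symbol gave 0 calls (limma; 52 at an unadjusted p under 0.05).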

Other observations

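Outside the gene lists, a few bright or widely different genes stood apart by value, all chosen after their values were seen and none past the adjustment (limma adjusted p = 0.999991). Malat1, a long noncoding RNA kept in the nucleus, was among the brightest of these. It read 4043 and 3307 in HFD+Can fat, against 6815 and 7963 in HFD fat, 2261 and 4663 in HFD+Tel fat and 2840.5 and 4327 in chow fat. The log2 difference HFD+Can minus HFD was −1.01 (−1.74 to −0.28; limma unadjusted p = 0.0123), and HFD minus chow was 1.07. Ppp6r1, a regulatory subunit of a protein phosphatase, read 194 and 79.9 in HFD+Can fat and 259 and 298 in HFD fat (−1.16, −1.96 to −0.36), with both HFD+Can mice below both HFD mice. Neurl3, a ubiquitin ligase gene, read 44.3 and 87.9 in HFD+Can fat and 124 and 149 in HFD fat (−1.12, −2.0 to −0.24). Sgsm3 was the 1 gene beyond 1 log2 unit on the higher side that was neither an immunoglobulin gene nor ranked, with 66.9 and 76.1 in HFD+Can fat and 31.6 and 28.1 in HFD fat (1.26, 0.16 to 2.36).

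H3f3b, which encodes the histone variant H3.3, had its low value in a single mouse: 37.8 and 214 in HFD+Can fat and 236 and 199 in HFD fat. Napb was placed likewise, with 8.84 and 70.7 in HFD+Can fat, against 62.5 and 84.7 in HFD fat. Scgb3a1 read 13.9 and 53.7 in HFD+Can fat and 71.8 and 73.0 in HFD fat, so both HFD+Can mice lay below both HFD mice. In these 3 genes HFD+Can mouse 1 was the lowest of the HFD+Can and HFD arrays, as it was for the immediate early and mesothelial list medians.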
